A study of Homo sapiens with 9 samples.

Results

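The CCCGGG sites described here carried methylation on nearly every copy in HEK293T cells. They are the 5262 sites on chromosomes 1 to 22 that had a value in all 9 libraries of the series and a mean over those 9 libraries above 95%. They made up 9.02% of the 58310 autosomal sites with a value in all libraries (complete sites), and the whole table held 59751 complete sites of 382289 listed. The choice rested on the measured methylation itself, so their high level is a description and not a result.

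HEK293T derives from human embryonic kidney and holds the SV40 T-antigen, and it is readily transfected. The cells were transfected with pIRES expression plasmids and genomic DNA was taken 4 days later. One group received TET1-FL, the full-length form, another received TET1-ALT and the last the empty vector. The series' title speaks of an isoform without the CXXC domain, read here as TET1-ALT. Each group had 3 libraries, and nothing in the labels says whether they came from separate cultures, so the spread given here may be technical. The plasmid was carried only by transfected cells, and how many took it up is not given in the sources used here. Cells without the plasmid may therefore contribute to every value, and a small loss in all cells and a larger loss in some cannot be told apart.

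Methylation was read by digital restriction enzyme analysis of methylation. SmaI cuts CCCGGG where the central CpG is unmethylated, XmaI then cuts the copies that remain, and the different ends tell the classes apart in sequencing. Positions are hg19, as listed in the table, which does not say which base of the CCCGGG they mark. No gene annotation of that build was used here, so the sites are named by position.

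CpG methylation is copied onto the new strand after replication by the maintenance methyltransferase DNMT1 and set anew by DNMT3A and DNMT3B. Most CpGs of the human genome outside CpG islands are methylated, in gene bodies, repeats and the DNA between genes. The TET1 enzyme oxidises 5-methylcytosine, which can lead to its removal, and its CXXC domain binds unmethylated CpG-rich DNA. At a site where almost all copies are methylated, the informative quantity is the small share of copies that are not, called here the unmethylated remainder (100% minus the methylation).

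The number of sites with a value ranged from 61549 to 72340 per library over the whole table. The labels set a minimum of 20 reads per site, and no further depth is known, so counting intervals are left out. Sites of 80 to 95% on the autosomes, 13168 in number, serve as the nearest class for comparison.

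The 5262 sites were spread over the range above the limit. Their means had a median of 96.996%, with 1328 of them (25.2%) at 96% or below and 518 (9.84%) above 99%. All 9 libraries were over 95% at 2712 sites (51.5%), and all 9 were over 99% at 161 sites. A value under 90% in any library was found at 106 sites (2.01%), and the lowest single value was 81.9%.

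The site of highest mean was on chromosome 13 at 45930062, with 99.89%, 99.90% and 99.87% in TET1-FL, 99.91%, 99.90% and 99.89% in TET1-ALT and 99.89%, 99.88% and 99.88% in empty vector cells. Its libraries lay within 0.04 points of each other. Next came chromosome 19 at 12729250 and chromosome 16 at 11672970, with means of 99.89% and 99.87%. The nearest other complete site was almost unmethylated beside the site on chromosome 13 (0.117% at a distance of 15017 bases) and beside that on chromosome 16 (1.29% at 7358 bases).

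Sites next to the limit show how little separates the members from their neighbours in level. Just inside it were the sites on chromosome 22 at 50242887, chromosome 1 at 9593744 and chromosome 17 at 43188129, with means of 95.001%, 95.001% and 95.002%. Just outside were chromosome 11 at 130185804, with a mean of exactly 95%, chromosome 4 at 41868111 and chromosome 4 at 3769350, the last with 94.998%. The first of the inside sites had 96.6%, 96.5% and 94.5% in TET1-FL, 96.5%, 96.5% and 96.6% in TET1-ALT and 93.2%, 92.0% and 92.6% in empty vector cells. Its empty vector libraries were below all others.

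The spread between replicates was small at these sites, where a mean near 100% leaves little room for it. The median SD between the 3 libraries of a group was 0.866 points in TET1-FL, 0.781 points in TET1-ALT and 0.796 points in empty vector cells. At sites of 80 to 95% the medians were 1.80 points in TET1-FL, 1.73 points in TET1-ALT and 1.76 points in empty vector cells. The largest departures were of single libraries. On chromosome 17 at 731303 the values were 97.25%, 96.22% and 97.02% in TET1-FL, 99.4%, 97.4% and 97.7% in TET1-ALT and 97.8%, 97.8% and 81.9% in empty vector cells, so that 1 library of the 9 was low. Likewise only replicate 2 of the empty vector was far below the rest on chromosome 12 at 89649950 (82.4%), where TET1-FL replicate 1 was next with 89.5%, and only replicate 2 of TET1-ALT on chromosome 5 at 32210010 (83.1%).

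Like sites of 80 to 95%, the members mostly lay far from unmethylated DNA. Only 150 of them (2.85%) were within 1000 bases of a complete site under 5%, against 3.90% of sites of 80 to 95% and 44.4% of all autosomal complete sites, a set that includes the unmethylated sites themselves. The median distance to such a site was 31032 bases for members, 30428 bases for sites of 80 to 95% and 4786 bases for all autosomal complete sites. Among all autosomal complete sites, each site under 5% counted as its own nearest such site. Much of the contrast with that set is therefore fixed by how the distance was taken. Members had 3 or more other listed CCCGGG sites within 1000 bases in 31.3% of cases, against 27.6% at 80 to 95% and 40.6% of all. These shares are descriptions, and no test was run on them.

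Where members did border unmethylated DNA, the change could be abrupt. On chromosome 11 the site at 1043417 had a mean of 95.9% (92.7% to 97.7% over the 9 libraries), while the site 107 bases away at 1043524 had 3.76% (1.45% to 5.97%). On chromosome 17 the site at 43508598 had 97.2% (94.7% to 98.8%), and that at 43508752, a distance of 154 bases, had 0.543% (0.290% to 0.880%). The third pair, on chromosome 2 at 85084870 and 85085043, had 95.8% and 4.55% across 173 bases. In none of these pairs did any library of the one site come near the values of the other.

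Members stood near each other. Of the 4155 members with another complete site within 1000 bases, 39.5% had a nearest such site that was also over 95%, against 17.5% of sites of 80 to 95% and 8.25% of all autosomal complete sites. With at most 1 member kept per 1000 bases the share was 23.7%, since that choice removes members that stand close together. A nearest site of 80 to 95% was found for 44.1% of them and one of 20% or less for 2.17%. The share with a nearest site over 95% was 59.9% at up to 50 bases, 42.7% above 100 and up to 200 bases, 36.9% above 300 and up to 500 bases, 22.4% above 500 and up to 1000 bases and 13.6% above 1000 and up to 10000 bases. Over all autosomal complete sites it was between 6.93% and 10.99% at every distance. Close sites can lie on the same restriction fragment and share its reads, and each pair of nearest sites can count for both of its sites.

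**Figure D1:**
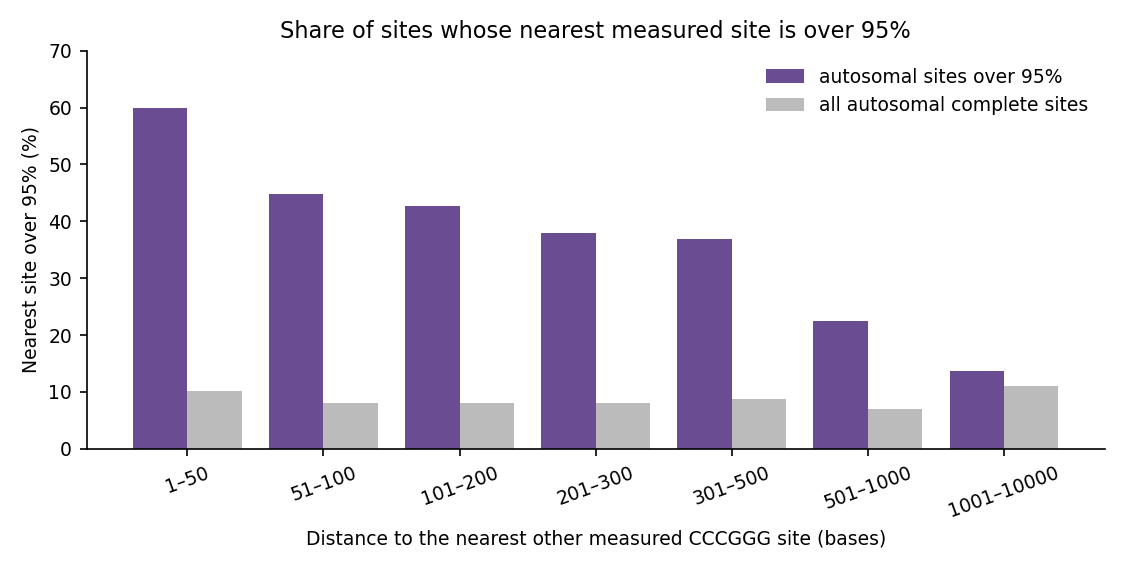
Share of sites (y axis, percent) whose nearest other measured CCCGGG site was over 95%, by distance to that site (x axis, bases), for the autosomal sites over 95% (purple) and all autosomal complete sites (grey). The purple bars decline from 59.9% at up to 50 bases to 13.6% in the class above 1000 bases, while the grey bars stay between 6.93% and 10.99%.

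High methylation did not always extend to the next CpG measured. Among the 212 members with a complete site within 50 bases, that site was at 80% or less in 14 cases. An example is chromosome 5 at 179219112, with a mean of 95.6%, where the complete site 13 bases away averaged 63.6%. Another is chromosome 17 at 7906988, with 95.5%, beside a site at 57 bases with 61.7%. These 2 examples are also among the sites of largest difference between groups described below.

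In order along the chromosomes, the members formed 3868 runs of consecutive complete sites over 95%. Single sites numbered 2931, and 937 runs of 2 or more held 2331 members (44.3%). Runs of 5 or more numbered 41. The longest had 11 sites and lay on chromosome 2 from 176977591 to 177021301, where 11 of 25 listed sites had a value in every library. The mean over the run was 98.4% ± 0.274 (SD, n = 3) in TET1-FL, 98.9% ± 0.206 in TET1-ALT and 98.6% ± 0.245 in empty vector cells. The complete site before it, at a distance of 4761 bases, had 0.194%, and the one after it, at 1662 bases, had 0.222%. The complete sites of the run thus lay between sites almost without methylation. No complete site fell between 10495 and 38917 bases from its start, so methylation along the whole stretch is not known.

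The next run had 10 sites within 2379 bases on chromosome 14 from 99640378 to 99642757, with a mean of 97.8% and a lowest single value of 92.0%. The closest complete site after it, at 8156 bases, had 76.2%. The third was on chromosome 1 from 1387319 to 1429499, where 9 of 42 listed sites had a value in every library. This run averaged 97.2% ± 0.249 in TET1-FL, 97.6% ± 0.314 in TET1-ALT and 97.5% ± 0.0898 in empty vector cells (SD, n = 3 each). It ended 17495 bases before a site of 0.180%. The TET1-FL libraries of this run lay at 97.09%, 97.45% and 96.97%, below the empty vector libraries at 97.52%, 97.47% and 97.65%. The gap between 97.45% and 97.47% was narrow beside the SD of TET1-FL. In the other 2 runs these groups overlapped, and a difference between runs was not tested.

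**Figure D2:**
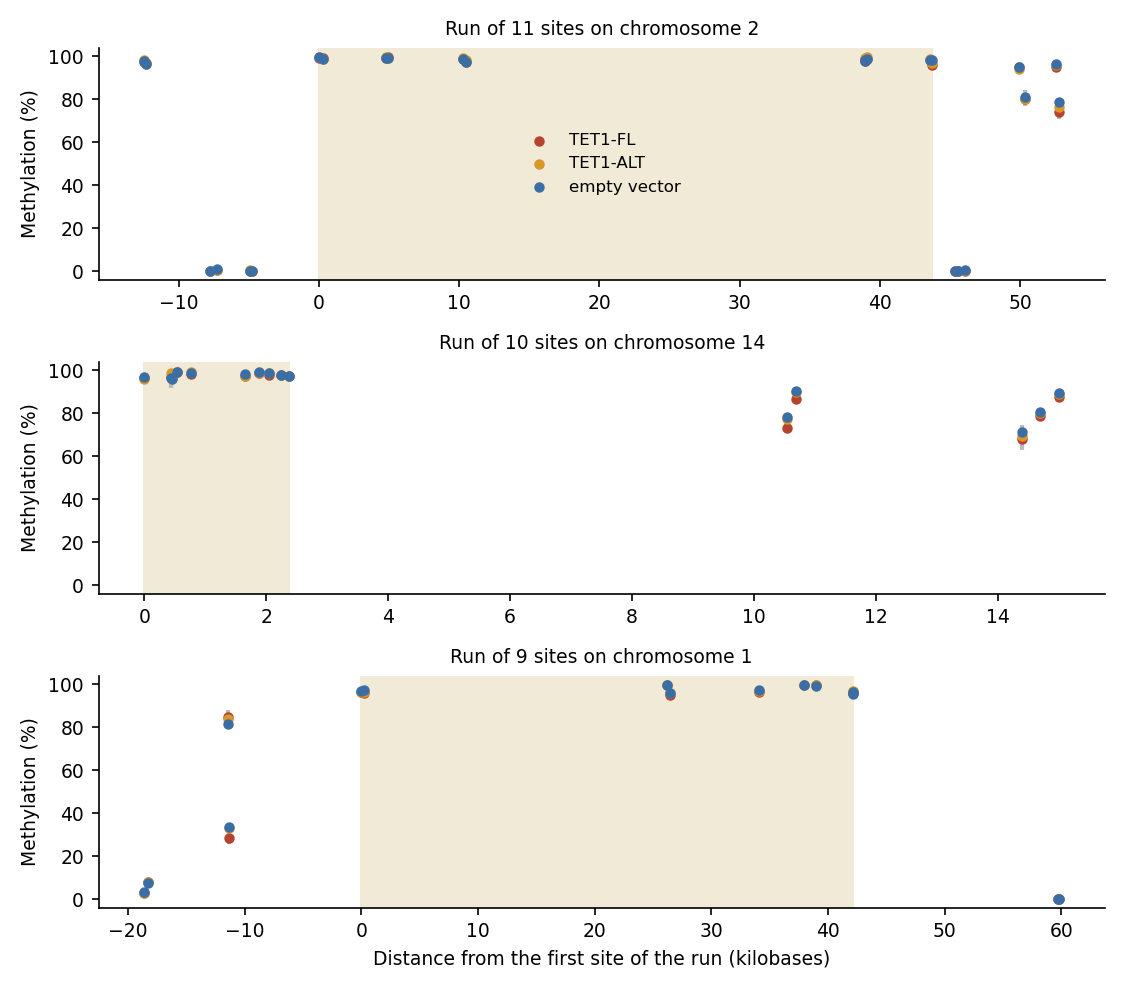
Methylation (y axis, percent) of complete sites in and around the 3 longest runs of sites over 95%, by distance from the first site of the run (x axis, kilobases; the run is shaded, and sites up to 20 kilobases beyond it are shown). Points are group means of 3 libraries and grey lines span all 9 libraries; the 11 sites on chromosome 2 have unmethylated sites on both sides.

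Members were found on each autosome, from 6.77% of complete sites on chromosome 11 (224 sites) to 11.2% on chromosome 13 (116 sites). Chromosome 19 held the most, 474 or 9.58% of its complete sites. As a share of all sites over 80%, the range was from 23.3% on chromosome 11 to 36.6% on chromosome 18. Incomplete sites were alike in this respect: of 15521 autosomal sites with a value in some but not all libraries, 1349 (8.69%) had a mean above 95%. On chromosome X, outside the definition used here, 27 of 1432 complete sites (1.89%) were over 95%.

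The first comparison set TET1-FL against the empty vector and asked how the full-length enzyme changes methylation. Sites over 95% had slightly less methylation in TET1-FL. The mean over the 5262 sites was 96.87%, 96.94% and 96.81% in the TET1-FL libraries and 97.25%, 97.28% and 97.14% in the empty vector libraries. All 3 TET1-FL libraries lay below all 3 of the empty vector. The group means were 96.87% ± 0.061 for TET1-FL and 97.22% ± 0.073 for the empty vector (SD, n = 3 each), a difference of -0.351 points with pairwise differences between libraries from -0.462 to -0.203. No p is given for means over sites chosen by their level, and 3 libraries against 3 could not reach an exact permutation p below 0.1. When each library was rescaled so that sites of 80 to 95% had the same mean everywhere, the sign turned, to 0.949 points, because those sites differed by more (-1.19 points).

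The unmethylated remainder was 3.13% in TET1-FL and 2.78% in empty vector cells, a ratio of 1.13 (1.07 to 1.17 over pairs of libraries). The ratio was 1.11 (1.06 to 1.15) at sites of 80 to 95%, where the remainder was 11.9% in TET1-FL and 10.7% in empty vector cells. In points the pairwise ranges of these classes did not overlap (-1.60 to -0.649 at 80 to 95%), while as ratios of the remainder their ranges overlapped. Within the members the difference was -0.567 points at means of 95 to 96%, -0.428 at 96 to 97%, -0.285 at 97 to 98%, -0.173 at 98 to 99% and -0.0572 at 99 to 100%. The corresponding ratios were 1.13, 1.13, 1.12, 1.12 and 1.09. Libraries of the groups were separate in the first 3 of these levels and overlapped in the last 2. The differences in points shrank toward 100%, while the ranges of the ratios overlapped between levels.

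**Figure D3:**
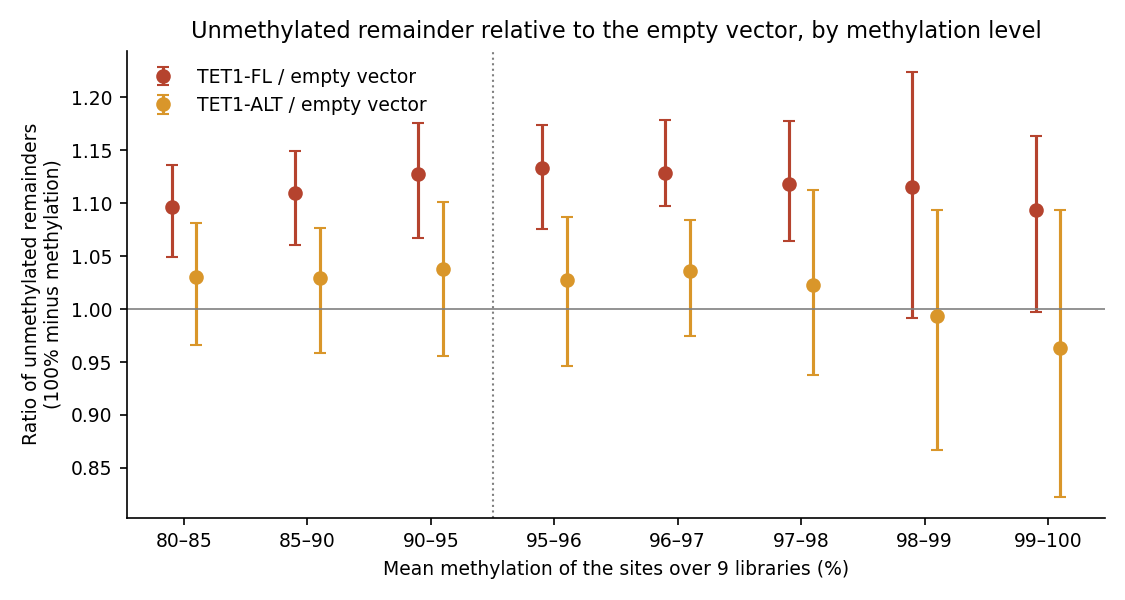
Ratio of the unmethylated remainder in TET1-FL (red) and TET1-ALT (orange) to that in empty vector cells (y axis), by mean methylation of the sites (x axis, percent; the dotted line marks the 95% limit). Points are ratios of group means and bars span the 9 pairs of libraries; TET1-FL lies between 1.09 and 1.13 at the levels over 95%, and TET1-ALT between 0.963 and 1.04.

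The table also lists 18 rows on 8 sequences outside the genome, read here as the spiked-in standards, which were added to the DNA after it had left the cells. The labels speak of 5 standards and do not name them. The standard named T324, with a row for each end, was in the same range as the members. Its first end had 98.8%, 98.9% and 98.8% in TET1-FL and 99.1%, 99.3% and 98.9% in empty vector cells, and its second end had 98.8%, 98.9% and 99.1% in TET1-FL and 98.9%, 98.5% and 99.2% in empty vector cells. The groups were separate at the first end and overlapped at the second. The mean of both ends was 98.87% ± 0.071 in TET1-FL and 98.99% ± 0.063 in empty vector cells (SD, n = 3 each), a difference of -0.120 points and a ratio of remainders of 1.12. The 713 members within 0.5 points of 99% differed by -0.0983 points with a ratio of 1.10 (0.971 to 1.21). Pairwise differences ran from -0.255 to 0.0100 points for the mean of both ends and from -0.193 to 0.0323 points for these members. Both ranges included 0, and the part of the standards-based correction in the result was not tested. Over all 18 rows, 10 were lower and 8 higher in TET1-FL than in empty vector cells, with differences from -1.72 to 2.497 points. Libraries were separate at 2 rows, the first end of T324 and Luc_2, which had 23.1% ± 0.887 in TET1-FL and 24.1% ± 0.211 in empty vector cells (pairwise differences from -2.26 to -0.260 points). Of all complete genomic sites, 14.9% were separate and lower in TET1-FL and 2.13% were separate and higher. The row next below T324 in level, Sla374_1, had 88.19% ± 0.483 in TET1-FL and 88.20% ± 0.154 in empty vector cells. Its difference was -0.0167 points (pairwise -0.75 to 0.40). The mean of 4248 genomic sites of 85 to 90% differed by -1.30 points (pairwise -1.739 to -0.743). These ranges overlapped slightly, and a single row was not tested against the mean of many sites.

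**Figure D4:**
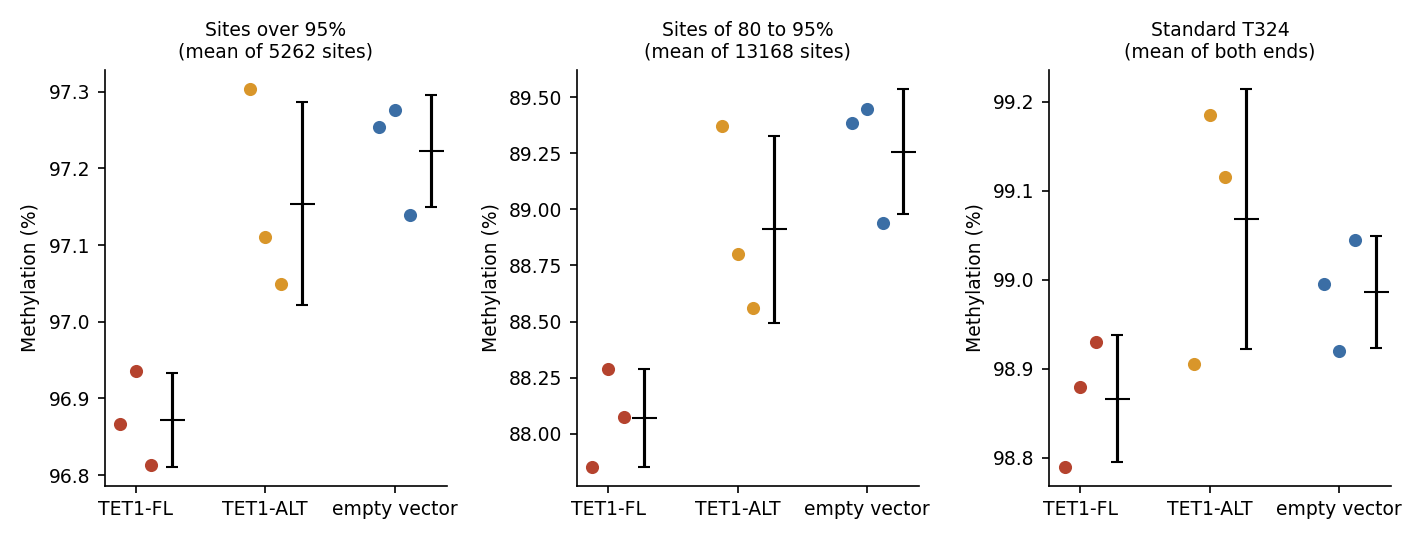
Mean methylation per library (y axis, percent, a separate scale in each panel that does not start at 0) of sites over 95%, sites of 80 to 95% and the standard T324, by group (x axis). Points are the 3 libraries of a group and the bar beside them is the mean ± SD; TET1-FL is below the empty vector without overlap in both site classes, whereas for the standard its highest library is above the lowest empty vector library.

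The lower level in TET1-FL was found along the genome. On all 22 autosomes the members had a lower mean in TET1-FL, and on 21 of them the libraries did not overlap. The autosomes share the same libraries, here and in the comparisons below, so they are not separate observations. Sites of 80 to 95% were also lower in TET1-FL (-1.19 points), and counts by autosome for them were not set beside these. The difference was most negative on chromosome 21 (-0.543 points, 120 sites) and least so on chromosome 7 (-0.245 points, 343 sites). By local density it was -0.313 points with 0 or 1 listed neighbours within 1000 bases, -0.416 with 2, -0.357 with 3 to 5 and -0.279 with 6 or more, with no order along the density. The 150 members within 1000 bases of a site under 5% differed by -0.493 points (pairwise -0.643 to -0.312). The difference was -0.259 points (-0.384 to -0.115) for the 1174 members above 1000 and up to 10000 bases away, -0.386 for the 1920 members up to 50000 bases away and -0.360 for the 2018 members beyond that, with no order along the distance. Members whose nearest complete site within 1000 bases was also over 95% differed by -0.329 points, and those beside a site of 80% or less by -0.394 points.

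No single site passed the test. In limma over 59751 sites, 0 were called at an adjusted p under 0.05 (0% of all sites), members included, and the smallest adjusted p among members was 0.359. At an unadjusted p under 0.05, 322 members (6.12%) were lower in TET1-FL, where 9.72% of all sites were, and 63 (1.20%) were higher, where 1.11% of all were. The 3 TET1-FL libraries were below the empty vector range at 567 members (10.8%), against 14.9% of all sites, and above it at 149 (2.83%), against 2.13% of all. The mean difference was below 0 at 3438 members (65.3%), against 66.5% of all sites. Member counts on the lower side were thus under the background. TET1-FL held the lowest of the 9 libraries at 2419 members (46.0%), TET1-ALT at 1433 (27.2%) and the empty vector at 1410 (26.8%). These shares were not set beside those of all sites, so they show no trait particular to the members. The median difference was -0.327 points over members and -0.183 over all sites, with 90% of members between -2.19 and 1.42 points.

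The members with the most negative difference were chosen by that value and are given as examples. On chromosome 19 at 10236018 methylation was 88.9%, 95.9% and 91.7% in TET1-FL and 98.4%, 98.6% and 98.6% in empty vector cells (limma difference -6.40 points, SE 1.61, adjusted p = 0.383). The empty vector libraries were nearly equal there, while those of TET1-FL were spread over 7 points. On chromosome 12 at 133564916 it was 94.5%, 93.1% and 86.8% in TET1-FL and 96.9%, 96.5% and 98.8% in empty vector cells, with -5.96 points between the means and -3.62 without TET1-FL replicate 3. On chromosome 3 at 194018001 the values were 89.4%, 93.6% and 92.8% in TET1-FL, against 98.1%, 97.7% and 96.1% in empty vector cells (-5.34 points), and TET1-ALT was between them at 96.2% ± 0.315. The fourth, chromosome 11 at 626034, had 96.13%, 91.47% and 93.01% in TET1-FL and 98.7%, 98.8% and 97.5% in empty vector cells (-4.81 points). TET1-ALT had 94.5%, 92.5% and 92.7% at that site, so both TET1 groups were below the empty vector.

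Higher values in TET1-FL were seen at other members. On chromosome 17 at 7906988 methylation was 98.13%, 98.02% and 96.12% in TET1-FL and 89.0%, 95.2% and 89.1% in empty vector cells (limma difference 6.33 points, SE 1.94, adjusted p = 0.406). On chromosome 3 at 119529432 it was 96.7%, 97.4% and 96.8% in TET1-FL, against 95.97%, 85.75% and 92.75% in empty vector cells, where the empty vector libraries were far apart. The difference there was 5.49 points, and 2.62 points without empty vector replicate 2. On chromosome 5 at 175795775 TET1-FL had 99.22%, 97.98% and 94.92% and the empty vector 90.8%, 93.1% and 93.1%, a difference of 5.04 points. The adjusted p of each of these 7 sites lay between 0.381 and 0.457 in limma.

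**Figure D5:**
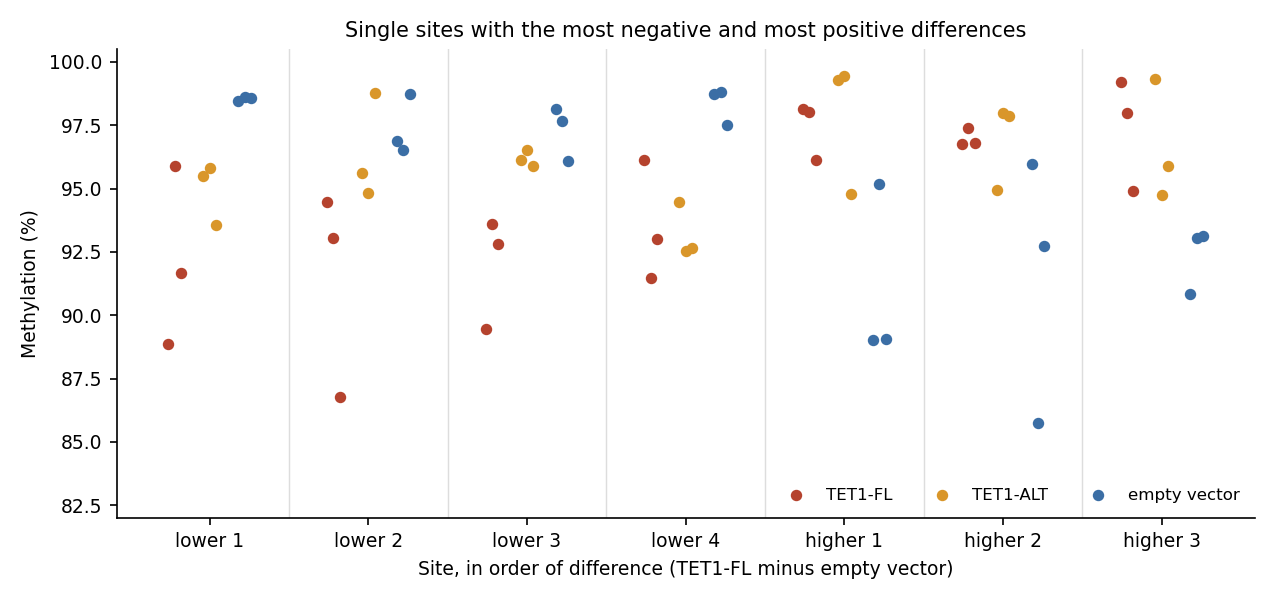
Methylation in each library (y axis, percent, from 82%) at the 4 members with the most negative and the 3 with the most positive difference between TET1-FL and the empty vector (x axis), in the order of the text. Points are single libraries of TET1-FL (red), TET1-ALT (orange) and the empty vector (blue); red and blue points do not overlap at any of these sites, by which they were chosen.

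TET1-ALT was set against the empty vector to describe the isoform named in the series' title. Methylation of the members did not differ between these groups by more than the spread between libraries. The TET1-ALT libraries had means of 97.30%, 97.11% and 97.05%, and the empty vector libraries had 97.25%, 97.28% and 97.14%. TET1-ALT replicate 1 was the highest of all 9 libraries and replicates 2 and 3 were below the empty vector. The means were 97.15% ± 0.133 for TET1-ALT and 97.22% ± 0.073 for the empty vector (SD, n = 3 each), a difference of -0.0686 points with pairwise differences from -0.227 to 0.165. It was -0.143 points without TET1-ALT replicate 1 and -0.0160 without TET1-ALT replicate 3, and -0.111 without empty vector replicate 3. Without TET1-ALT replicate 2, empty vector replicate 1 or empty vector replicate 2 it was -0.0466, -0.0531 or -0.0422 points. With the libraries rescaled to equal means of sites of 80 to 95% the sign turned, to 0.308 points. This follows from the rescaling itself, because those sites differed by more (-0.346 points). The remainder was 2.85% in TET1-ALT and 2.78% in empty vector cells, a ratio of 1.02 (0.942 to 1.08).

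The sign differed between levels. Members of 95 to 96% had a difference of -0.118 points and those of 96 to 97% of -0.120 points, while those of 98 to 99% had 0.0095 points and those of 99 to 100% had 0.0226 points, all with overlapping libraries. The standard T324 had 99.07% ± 0.146 in TET1-ALT and 98.99% ± 0.063 in empty vector cells, a difference of 0.0817 points. On 17 of 22 autosomes the mean of the members was lower in TET1-ALT, with separate libraries on 1. That was chromosome 21, with a difference of -0.353 points (pairwise -0.671 to -0.112), and the most positive difference was 0.0683 points on chromosome 4.

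For TET1-ALT against the empty vector limma called 0 of 59751 sites (0% of all), and the smallest adjusted p of a member was 0.652. At an unadjusted p under 0.05, 118 members (2.24%) were lower, where 5.49% of all sites were, and 89 (1.69%) were higher, where 1.73% were. The mean difference was below 0 at 2848 members (54.1%), against 56.5% of all. Libraries were separate at 327 members lower in TET1-ALT (6.21%), against 10.1% of all sites, and at 261 higher (4.96%), against 3.14% of all. The site of most negative difference, chromosome 5 at 179219112, had 92.4%, 94.3% and 87.9% in TET1-ALT and 98.4%, 98.4% and 97.5% in empty vector cells (limma difference -6.57 points, SE 1.55, adjusted p = 0.673). TET1-FL had 96.1%, 98.8% and 97.1% at this site and so overlapped the empty vector. The second was chromosome 1 at 36787729, with 93.1%, 91.9% and 91.6% in TET1-ALT and 97.2%, 98.6% and 99.2% in empty vector cells (limma difference -6.14 points, SE 0.923, adjusted p = 0.652). Its libraries were close within both groups. Chromosome 11 at 626034, described above, and chromosome 16 at 705435 followed with -5.12 and -4.96 points. The most positive differences were on chromosome 9 at 136763819 (6.13 points), chromosome 17 at 73180120 (5.68 points) and chromosome 4 at 184727677 (4.51 points). At the first 2 of these the empty vector held 1 low library, 85.3% and 87.6%, and without it the differences were 2.89 and 3.08 points.

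The comparison of TET1-FL with TET1-ALT addressed what the form with the CXXC domain does beyond the form without it. The members were less methylated in TET1-FL. The difference was -0.282 points, with pairwise differences from -0.490 to -0.113 and no overlap of libraries, and the remainders were 3.13% in TET1-FL and 2.85% in TET1-ALT, a ratio of 1.10 (1.04 to 1.18). Without TET1-ALT replicate 1 the difference was -0.207 points. With the libraries rescaled to equal means of sites of 80 to 95% it was 0.641 points, again because those sites differed by more (-0.840 points). On each of the 22 autosomes the mean was lower in TET1-FL, with separate libraries on 17, and the difference was most negative on chromosome 13 (-0.455 points) and least so on chromosome 15 (-0.170 points). At the first end of the standard T324 the difference was -0.327 points with separate libraries (pairwise -0.380 to -0.240) and a ratio of remainders of 1.39. The mean of both its ends differed by -0.202 points with overlapping libraries (pairwise -0.395 to 0.0250). The 713 members within 0.5 points of 99% differed by -0.146 points with separate libraries and a ratio of 1.15, and the part of the standards-based correction in this was not tested.

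Between the TET1 forms limma called 0 of 59751 sites (0% of all), and the smallest adjusted p of a member was 0.830. At an unadjusted p under 0.05, 207 members (3.93%) were lower in TET1-FL, where 4.46% of all sites were, and 61 (1.16%) were higher, where 1.1% were. The mean difference was below 0 at 3293 members (62.6%), against 60.7% of all. Libraries were separate at 436 members lower in TET1-FL (8.29%), against 7.36% of all sites, and at 137 higher (2.60%), against 1.94% of all, shares near the background. After chromosome 12 at 133564916 (-4.98 points), the lowest sites relative to TET1-ALT were chromosome 7 at 44797499, chromosome 2 at 241722282 and chromosome 17 at 72947991, with limma differences from -4.90 to -4.62 points. At the last of these TET1-FL had 93.68%, 98.46% and 90.37%, TET1-ALT had 98.50%, 98.96% and 98.92% and the empty vector averaged 98.3% ± 0.418 (SD, n = 3). TET1-FL replicates 1 and 3 were low there, and replicate 2 was not. Chromosome 5 at 179219112 had the most positive difference (5.80 points), followed by chromosome 21 at 11089444 (4.28 points) and chromosome 7 at 100161272 (3.82 points). The site on chromosome 21 had 98.1%, 97.8% and 97.8% in TET1-FL, 94.98%, 90.52% and 95.32% in TET1-ALT and 97.9%, 97.7% and 97.9% in empty vector cells, so that the TET1-ALT libraries alone were lower.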

How the data were processed

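DREAM was measured in 9 libraries of HEK293T genomic DNA, 3 per group. Per the labels, the authors digested spiked DNA with SmaI and XmaI, selected fragments by size, amplified them with 18 PCR cycles and kept values with at least 20 reads. The deposited percent values are the methylated share of reads per CCCGGG site, corrected by the authors for enzyme efficiency with standards, as the deposited series description states. Sites are on hg19, per the submitters' processing notes. For the aligner and caller, versions and settings: not given in the sources used here.

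Members were found by their mean over the 9 libraries. limma 3.58.1 (R 4.3.3) was fitted to the percentages of all 59751 complete sites (a mean per group, no replicate term, trend and robust moderation), with Benjamini-Hochberg adjustment over all sites and calls at an adjusted p under 0.05. The fit was tested on simulated data. The comparisons with the empty vector share its libraries. Site by site, replicate numbers showed no pairing. Deviations of same-numbered libraries from their group means correlated by -0.0151 to 0.0200 across all complete sites and by -0.0290 to 0.0219 across members. Such a correlation does not register a shift of a whole library. Replicate 3 had the lowest mean over the members in each group (96.81%, 97.05% and 97.14% in TET1-FL, TET1-ALT and the empty vector), and a shared shift was not tested. The members and the lists of sites were chosen with earlier results of these data known. Named sites were the 3 of highest mean, the 3 on either side of the limit, the 3 longest runs, the 3 lowest in 1 library, the 3 nearest to a site under 5% and, per comparison, the 4 most negative and 3 most positive differences among members with separate libraries, at most 1 per 1000 bases. Leaving out libraries for the remainder ratio and leaving out chromosome 21 were added after seeing the data, and the sites named beside a neighbour within 60 bases were picked after their values were seen. Alternatives covered the limit, the scale, moderation, rescaling, incomplete sites, a replicate block and leaving out libraries. No sequence of the sites was at hand, so none is printed.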

Additional observations from a re-analysis of the deposited data

Results flagged for a closer look

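The spiked-in standards lie outside the genomic comparisons, and 2 of their 18 rows had a larger unmethylated remainder in a TET1 group than in empty vector cells with no overlap of libraries. Of all complete genomic sites, 14.9% were separate and lower in TET1-FL and 10.1% in TET1-ALT, so the count of rows is no departure from the genomic shares. At the first end of T324 the remainder was 1.16% in TET1-FL and 0.893% with the empty vector, a ratio of 1.29, with no overlap of the 3 libraries of each group. At the second end the remainders were 1.11% in TET1-FL and 1.13% with the empty vector, and the libraries overlapped. In TET1-ALT the first end had a remainder of 0.830%. For Luc_2 the remainder was 76.9% in TET1-FL and 76.4% in TET1-ALT, against 75.9% in empty vector cells. Between the TET1 forms, libraries were separate at the first end of T324 (-0.327 points) and at T353_2 (-1.43 points, with 41.1% ± 0.390 in TET1-FL and 42.6% ± 0.341 in TET1-ALT; SD, n = 3 each). The members were chosen by percentages that the authors had corrected with standards, so the standards are not independent of that choice. Their part in the differences was not tested. Groups of 3 libraries are too small for a test of single outlying libraries.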

How the results depend on the processing

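No site was called in any of the 42 alternative fits, and the smallest adjusted p of a member ranged from 0.129 to 0.520 for TET1-FL against the empty vector, 0.176 to 0.793 for TET1-ALT and 0.334 to 0.956 between the forms. The replicate block also gave 0 calls. It had 271 lower and 66 higher members at an unadjusted p under 0.05 in limma for TET1-FL against the empty vector. The main fit had 322 and 63. The share of all sites under the replicate block was not set beside these counts, so they show no trait of the members. The weak correlation of same-numbered libraries across sites does not decide whether whole libraries were paired. Leaving out each library gave 0 calls and differences of the members' mean of -0.392 to -0.321 points for TET1-FL, -0.143 to -0.0160 for TET1-ALT and -0.335 to -0.207 between the forms, and ratios of the remainder of 1.12 to 1.14 and 1.01 to 1.05. Leaving out chromosome 21, added after seeing the data, gave -0.346 and -0.0620 points.

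The size in points followed the limit. For TET1-FL against the empty vector it was -0.427, -0.277, -0.202 and -0.130 points at limits of 94, 96, 97 and 98%, and -0.228 with every library over 95%. For TET1-ALT it turned to 0.0144 points at 98%. Between the forms it was -0.144 points at 98% and -0.166 with every library over 95%. Rescaling to sites of 80 to 95% reversed all 3 comparisons, to 0.949, 0.308 and 0.641 points, by its construction. Members with separate libraries, lower in TET1-FL than the empty vector, were 9.94%, 9.38% and 8.74% at 96, 97 and 98%, and higher ones 3.77% and 4.08% at 97 and 98%. Of all complete sites, 14.9% were separate and lower in TET1-FL and 2.13% were separate and higher. For TET1-ALT, lower ones were 4.87% at 98% and higher ones 6.06% and 7.66% at 97 and 98% and 5.72% with every library over 95%. Over all complete sites the shares for TET1-ALT were 10.1% lower and 3.14% higher. Between the forms higher ones were 2.15% at 98%, against 1.94% of all complete sites. The share with 3 or more neighbours was 33.2% with every library over 95% and 24.1% with 1 member per 1000 bases, and 3.51% were within 1000 bases of a site under 5% at a limit of 98%. The share whose nearest site was over 95% was 36.8%, 43.6%, 48.0% and 54.4% at 94, 96, 97 and 98%, 46.9% with every library over 95% and 23.7% with 1 member per 1000 bases. The median SD was 0.971, 0.779, 0.664 and 0.499 points at these 4 limits. The cause of these shifts was not tested. The 21 site differences named in comparisons kept their sign in all 168 refits run on them. These sites had been chosen among members with separate libraries, so leaving out a library could not turn their sign. Nothing about their stability is drawn from that count.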
